A study of Mus musculus with 24 samples.

Results

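The 8 genes described here encode the transcription factor p53 (Trp53), 5 of the genes it is known to activate (Cdkn1a, Mdm2, Plk2, Ccng1 and Bax) and the senescence-associated cell-cycle inhibitors Cdkn2a and Cdkn2b. They were taken by symbol from 25369 genes listed in every file, and all 8 passed the filter on low counts with 14789 genes in all. Transcripts were counted in the left quadriceps, a thigh muscle, of mice aged 25 weeks, with 3 libraries in each of 8 groups. The mice carried the Lama2-CMD mutation (CMD) or were wild type (WT) on 4 inbred backgrounds. Lama2 encodes a laminin chain of the basement membrane around muscle fibres, and its loss causes a congenital muscular dystrophy. The CMD groups were B6 CMD (C57BL/6J, libraries 4 to 6), 67 CMD (strain label CMD-67, named BXD-67 in the study design, libraries 10 to 12), 87 CMD (CMD-87, named BXD-87, libraries 16 to 18) and D2 CMD (DBA/2J, libraries 22 to 24). Their references were B6 WT (libraries 1 to 3), 67 WT (7 to 9), 87 WT (13 to 15) and D2 WT (19 to 21). BXD strains were bred from crosses of B6 with D2 and carry segments of both. The labels state neither the allele of the mutation nor any treatment, so at this age and in whole muscle the groups differ by genotype and background as labelled.

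As background, p53 is a stress-activated transcription factor. Mdm2 ubiquitinates it and is itself a p53 target, which closes a negative feedback loop. The p53 target Cdkn1a encodes p21, which blocks cyclin-dependent kinases. Cdkn2a encodes p16Ink4a and p19Arf from alternative first exons, and Cdkn2b encodes p15Ink4b. The p16Ink4a and p15Ink4b proteins block CDK4 and CDK6 and so keep the RB protein active, and p19Arf inhibits Mdm2. In muscle these inhibitors are known from the cell-cycle exit of differentiating myoblasts and from senescent satellite cells.

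Total exon reads ran from 32292613 to 51715975 per library. Lama2 itself was at 16.04 to 23.9 CPM (reads scaled to the same TMM-adjusted library size) in B6 CMD and 12.9 to 19.5 CPM in 87 CMD, below all 3 WT libraries of the same strain, but overlapped between CMD and WT in 67 and in D2. The sex labels of 20 libraries matched their Y-linked reads, and those of D2 CMD libraries 22 and 24 and of D2 WT libraries 19 and 21 did not. By those reads D2 CMD held 2 males and 1 female and D2 WT held only females. The main fit therefore has no sex term, and sex is given below beside the genes it moved with. Library 16 (87 CMD) had the lowest mean Pearson r with its replicates, 0.945 across genes, and was marked by Mt1, a metallothionein gene, at 1180 CPM and by Trim63, a ubiquitin ligase gene of muscle wasting, at 3815 CPM. In the other 23 libraries Trim63 was at 118 to 318 CPM.

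Differences were tested by edgeR's quasi-likelihood test on 8 group means, with p adjusted over all 14789 genes by Benjamini-Hochberg, and a gene was called below 0.05. Where the libraries of 2 groups are said below not to overlap, this describes the values and is no test. The share of all genes whose libraries do not overlap within 1 strain is not given here. Of the 8 genes, 1 was raised and 0 lowered in B6 CMD muscle, where 8.07% of all genes were raised and 10.4% lowered. In 67 CMD muscle 2 were raised and 1 lowered, against 11.4% and 10.3% of all genes. In 87 CMD muscle 3 were raised and 0 lowered, against 11.5% and 9.38%. In D2 CMD muscle 6 were raised and 1 lowered, against 11.2% and 9.03%. Averaged over the 4 strains, 4 were raised (Cdkn1a, Cdkn2a, Plk2 and Bax) and 1 lowered (Ccng1), against 25.4% and 23.4% of all genes. The median log2 fold change of the 8 genes was 0.20 in B6, 0.20 in 67, 0.34 in 87 and 0.71 in D2, and that of all genes lay between 0.00 and 0.03 in each strain.

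**Figure D1:**
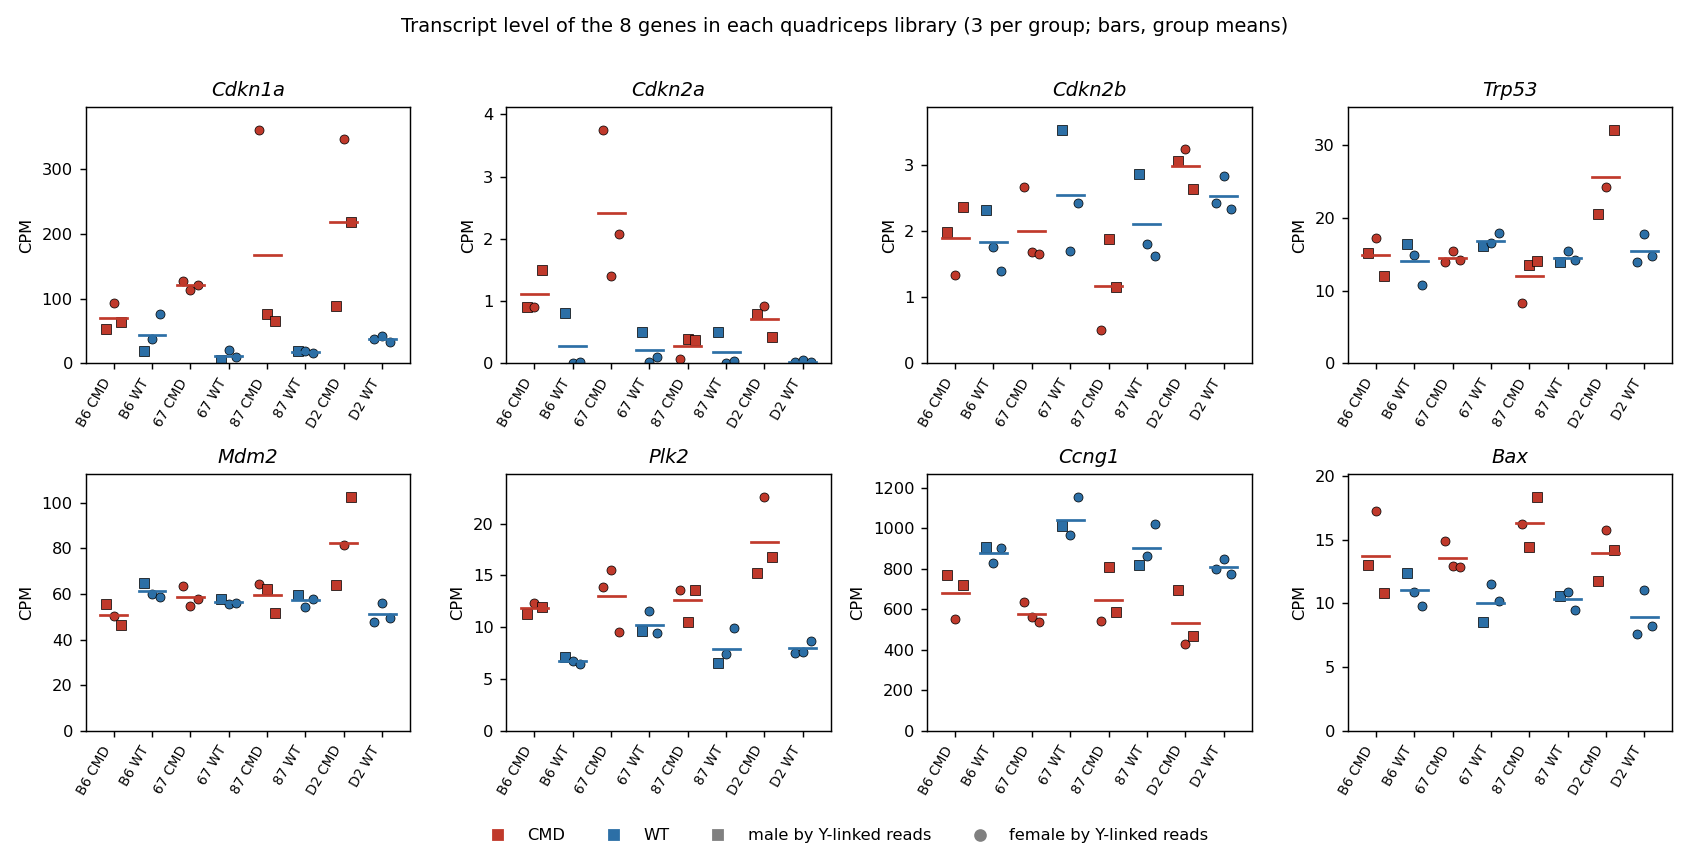
Level of each of the 8 genes in every library, in CPM on linear axes from 0, CMD left of WT in each strain. Squares are male and circles female by Y-linked reads, and bars are group means of 3 libraries. Cdkn1a is higher in every CMD library than in all 3 WT libraries of its strain in 67, 87 and D2, and overlaps in B6. Ccng1 is lower in every CMD library than in all 3 WT libraries of its strain. Trp53 and Mdm2 have their highest group means in D2 CMD.

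On the per-length scale of the deposited TPM, which allows levels to be set side by side between genes, Ccng1 was the most abundant of the 8 in both genotypes. Its median over 12 libraries was 352 TPM in CMD (267 to 437) and 517 TPM in WT (442 to 619). Cdkn1a had the next highest median in CMD muscle, 79.8 TPM (34.1 to 357), with a range that overlapped that of Mdm2. In WT its median was 15.4 TPM (3.87 to 56.5), and its range took in those of Mdm2, Trp53, Bax and Plk2. Mdm2 had medians of 35.9 TPM in CMD and 35.5 TPM in WT. Trp53 and Bax had overlapping ranges in both genotypes, with medians of 16.2 and 20.7 TPM in CMD and 16.7 and 14.9 TPM in WT. Plk2 followed at 8.49 TPM in CMD and 5.68 TPM in WT. The lowest were Cdkn2b, at 2.53 TPM in CMD and 3.27 TPM in WT, and Cdkn2a, at 1.47 TPM in CMD and 0.0565 TPM in WT. In CMD the ranges of these last 2 genes overlapped, and in WT the highest Cdkn2a value (1.34 TPM) lay below the lowest Cdkn2b value (2.05 TPM).

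Cdkn1a, the p21 inhibitor, rose in 67, 87 and D2 CMD muscle and was not called in B6. In 67 it was at 127, 114 and 122 CPM in CMD and 5.25, 21.2 and 9.68 CPM in WT. The CMD libraries lay close together there, and the lowest was more than 5 times the highest WT library. The log2 fold change was 3.32 ± 0.65 (SE, adjusted p = 0.00158). In 87 it was at 359.9, 75.9 and 66.2 CPM in CMD and 19.5, 18.8 and 15.7 CPM in WT. The groups did not overlap, and library 16 alone held several times the level of the other 2 CMD libraries. The log2 fold change was 3.22 ± 0.64 (adjusted p = 0.00189), or 1.98 (adjusted p = 0.0162) without library 16. In a fit on the 6 libraries of 87 alone Cdkn1a was not called (adjusted p = 0.057). In D2 it was at 89.0, 346 and 218 CPM in CMD and 37.4, 41.7 and 32.4 CPM in WT. All 3 CMD libraries lay above all WT libraries but spread widely (2.55 ± 0.62, adjusted p = 0.0084). By Y-linked reads D2 CMD holds 2 males and D2 WT none, and with a sex term the value was 3.23 with the sex of the Y-linked reads (adjusted p = 0.000335) and 1.82 with labelled sex (adjusted p = 0.0187). In B6 it was at 52.8, 93.8 and 63.4 CPM in CMD and 19.3, 37.6 and 75.5 CPM in WT. WT library 3 lay above 2 CMD libraries there, and the log2 fold change was 0.66 ± 0.59 (adjusted p = 0.461). The fold was thus called in 3 strains and not in B6, but the difference of the CMD effect among the strains did not pass the F test of the interaction (adjusted p = 0.143). The level in WT did not differ among strains past the threshold (adjusted p = 0.125), though it did without library 16 (adjusted p = 0.0342) and with a term for the sex that Y-linked reads give (adjusted p = 0.0365).

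Cdkn1a was set beside sex and beside a list of stress-induced genes, whose sum stood apart in library 16 alone. With the sex that Y-linked reads give as an added term, Cdkn1a was lower in males than in females by a log2 fold change of -1.19 ± 0.26 (adjusted p = 0.0296, where 1.22% of all genes were called). With sex as labelled the value was -1.04 (adjusted p = 0.0949), and among the 12 WT libraries alone -0.89 (adjusted p = 0.226). The only female of 87 CMD is library 16, at 359.9 CPM of Cdkn1a against 75.9 and 66.2 CPM in the males. The sex term was not fitted without library 16, and reading it was not planned. The 10 genes of a glucocorticoid, FoxO and metallothionein list (such as Trim63, Fkbp5, Mt1 and Ddit4) summed to 10280 CPM in library 16, against 946 and 953 CPM in the other 2 libraries of 87 CMD and 847 to 1030 CPM in 87 WT. The sums of libraries 17 and 18 thus lay within the range of 87 WT, but single genes of the list did not all follow the sum. Mt1 was at 20.1 and 27.3 CPM in libraries 17 and 18 and at 4.19 to 6.34 CPM in 87 WT. Mt2 and Trim63 also lay above 87 WT in these libraries, while Fkbp5 and Fbxo32 lay within its range. In the fit of 87 CMD with library 16 included, 7 of those 10 genes rose, against 11.5% of all genes, with a median log2 fold change of 2.17. In D2 CMD, where Cdkn1a also rose, 0 of the 10 were called in either direction by edgeR. Their sum was 741 to 807 CPM in D2 CMD and 697 to 1230 CPM in D2 WT. Mt1 and Mt2 lay above D2 WT in every D2 CMD library, with Mt1 at 18.4 to 29.8 CPM against 5.58 to 8.14 CPM. Trim63, Fkbp5 and Fbxo32 overlapped between D2 CMD and D2 WT. The part of these genes' inducers in the Cdkn1a values was not tested.

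**Figure D2:**
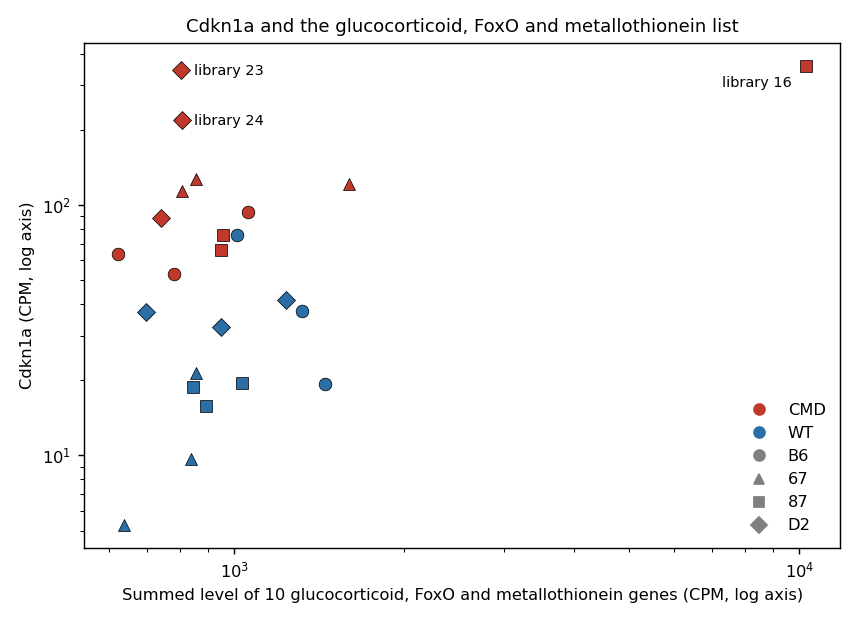
Cdkn1a level against the summed level of 10 glucocorticoid, FoxO and metallothionein genes, one point per library, both in CPM on log axes. Library 16 lies apart at 359.9 CPM of Cdkn1a and 10280 CPM of the list, while D2 CMD libraries 23 and 24 reach 346 and 218 CPM of Cdkn1a at about 805 CPM of the list.

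Cdkn2a, which encodes p16Ink4a and p19Arf, rose in 67 and D2 CMD muscle and was scarce throughout. The counts are for the whole gene, so the 2 products were not told apart. In 67 it had 155, 68 and 79 reads in CMD and 19, 1 and 4 reads in WT, which is 1.41 to 3.75 CPM in CMD and 0.0279 to 0.507 CPM in WT. The groups did not overlap, and the log2 fold change was 3.46 ± 1.1 (adjusted p = 0.0304). In D2 it had 40, 52 and 25 reads in CMD and 1, 2 and 1 reads in WT. Summed over libraries the D2 ratio was 28.5, with an exact 95% interval of 10.8 to 106 that covers counting error only. The fit gave 4.45 ± 1.36 (adjusted p = 0.0271). By Y-linked reads D2 CMD holds males and D2 WT none, so these values mix sex with genotype. With labelled sex, which the Y-linked reads go against in 4 D2 libraries, the value was 6.18 (adjusted p = 0.000838). That was the highest value of the alternative fits. Single libraries left out aside, the lowest value of the alternative fits was 3.62, and their highest adjusted p was 0.0494. In B6 there were 35, 40 and 59 reads in CMD and 24, 0 and 1 reads in WT, and the groups did not overlap either. The B6 log2 fold change was 2.05 ± 1.08 (adjusted p = 0.191). In 87 the groups overlapped, with 3, 14 and 18 reads in CMD and 21, 0 and 2 reads in WT (0.63 ± 1.13, adjusted p = 0.746). The call in 67 was lost without library 8, 9, 10 or 12 and that in D2 without library 19, 20, 21 or 23. In B6 a call was gained without library 1 (fitted log2 fold change 6.07, adjusted p = 0.0128), where the remaining 2 WT libraries hold 1 read. Averaged over the strains the log2 fold change was 2.65 ± 0.59 (adjusted p = 0.00103).

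Within WT the Cdkn2a reads fell on one sex. The 3 males by Y-linked reads, 1 each of B6, 67 and 87, had 24, 19 and 21 reads, and the 9 females had 0 to 4. In CPM this was 0.500 to 0.806 in males and 0 to 0.109 in females, with no overlap. The same 3 males also had the highest fibro-adipogenic and macrophage marker sums among the WT libraries of their strain. The 7 fibro-adipogenic markers summed to 1057, 838 and 861 CPM in them. In the WT females of those strains the sum was 461 to 660 CPM, and in the D2 WT females 456 to 786 CPM. With 1 male per strain, sex and cell content cannot be told apart in these libraries. In a fit of the 12 WT libraries on strain and sex from the Y-linked reads, Cdkn2a was higher in males by a log2 fold change of 4.03 ± 0.63 (adjusted p = 0.00961, where 2.94% of all genes were called). This coding and this fit were chosen after the values were known. In CMD muscle the sexes overlapped, at 0.369 to 1.502 CPM in 6 males and 0.0786 to 3.75 CPM in 6 females. Over all 24 libraries the male-minus-female value was 1.76 ± 0.54 with the sex of the Y-linked reads (adjusted p = 0.106) and 2.30 with sex as labelled (adjusted p = 0.0478, where 0.899% of all genes were called). Whether the CMD effect on Cdkn2a itself differs between the sexes was not tested.

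Set within one sex, the CMD and WT values of Cdkn2a were further apart in females than when all libraries were pooled. The 3 females of 67 CMD had 302 reads in all and the 2 of 67 WT had 5, a ratio of 41.6 (17.6 to 129, counting error only). The single female of B6 CMD had 40 reads against 1 in the 2 of B6 WT, a ratio of 72.8 (12.3 to 2948). The single female of D2 CMD, library 23, had 52 reads against 4 in the 3 of D2 WT (ratio 42.0, 15.5 to 160). In 87, library 16, the 1 CMD female, had 3 reads against 2 in the 2 WT females (ratio 3.21, 0.368 to 38.4). That interval overlapped those of the females of the other 3 strains. Among males, B6 CMD had 94 reads in 2 libraries and B6 WT 24 in 1, a ratio of 1.65 (1.04 to 2.70). The 2 males of 87 CMD had 32 reads and the 1 of 87 WT had 21, a ratio of 0.722 (0.404 to 1.32). In a fit of the 15 females alone Cdkn2a had log2 fold changes of 5.77, 5.07 and 4.81 in B6, 67 and D2 (adjusted p = 0.00863, 0.00117 and 0.00322) and of 1.64 in 87, which was not called (adjusted p = 0.393). That fit has 1 CMD library in each of B6, 87 and D2, which is assumed to vary like the other groups.

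**Figure D3:**
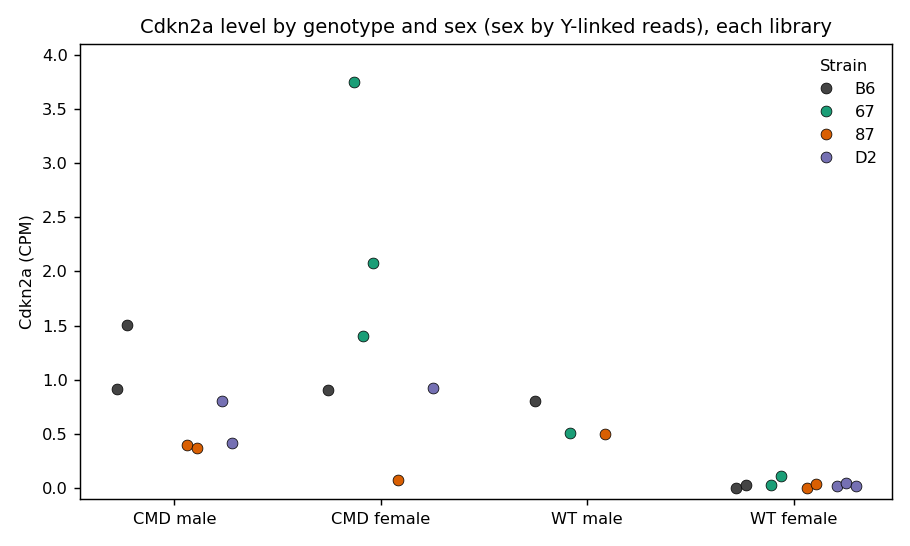
Cdkn2a level in CPM in each library, by genotype and by sex as the Y-linked reads give it, coloured by strain. The 9 WT females lie at 0 to 0.109 CPM and the 3 WT males at 0.500 to 0.806 CPM, while CMD libraries of both sexes spread up to 3.75 CPM, with the 87 CMD libraries lowest.

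Cdkn2b, which encodes p15Ink4b and lies beside Cdkn2a on mouse chromosome 4, was not called in any strain. Over the 12 libraries of each genotype it ran from 0.498 to 3.24 CPM in CMD (median 1.93) and from 1.40 to 3.52 CPM in WT (median 2.32). The largest difference was in 87, at 0.498, 1.88 and 1.15 CPM in CMD and 2.86, 1.81 and 1.63 CPM in WT, with overlapping groups (log2 fold change -0.84, adjusted p = 0.123). It was called there without library 17 (-1.31, adjusted p = 0.0202) and with either sex term (-1.09, adjusted p = 0.0162, with labelled sex and -1.10, adjusted p = 0.0144, with the sex of the Y-linked reads). In D2 CMD Cdkn2b stood above 87 CMD by a log2 difference of 1.34 ± 0.38 (adjusted p = 0.0107, where 17.3% of all genes were higher in D2 CMD). The other pairs of CMD groups were not called for Cdkn2b, and the F test among CMD groups was not passed (adjusted p = 0.0577).

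Trp53 and its ligase Mdm2 rose in D2 CMD muscle and were not called in the other 3 strains. Trp53 was at 20.6, 24.2 and 32.1 CPM in D2 CMD and 14.02, 17.7 and 14.7 CPM in D2 WT, without overlap (0.73 ± 0.20, adjusted p = 0.0156). In the other strains it ran from 8.31 to 17.3 CPM in CMD and 10.7 to 17.95 CPM in WT. Within 67 the CMD libraries (13.97 to 15.5 CPM) all lay below WT (16.2 to 17.95 CPM), but Trp53 was not called there (-0.22, adjusted p = 0.47). Mdm2 was at 63.9, 81.2 and 102 CPM in D2 CMD and 47.8, 56.2 and 49.6 CPM in D2 WT (0.69 ± 0.14, adjusted p = 0.00224). In B6 it was at 55.5, 50.4 and 46.3 CPM in CMD and 64.8, 59.8 and 58.8 CPM in WT, so the CMD libraries all lay below WT, with a log2 fold change of -0.27 that was not called (adjusted p = 0.172). In 67 and 87 Mdm2 overlapped between the genotypes. The D2 call of Trp53 was lost without library 19, 21 or 24, and both genes kept their D2 call with a term for the sex of the Y-linked reads (Trp53 0.66, adjusted p = 0.0424, and Mdm2 0.67, adjusted p = 0.00631).

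The CMD effect on Mdm2 differed among the 4 strains by the F test of the interaction (adjusted p = 0.0243), and it was the 1 gene of the 8 that did, where 4.67% of all genes were called. The effect in D2 exceeded that in B6 by 0.96 ± 0.19 on the log2 scale (adjusted p = 0.00896, where 1.12% of all genes were raised) and that in 87 by 0.64 ± 0.19 (adjusted p = 0.0458, where 3.02% were raised). Trp53 differed for 1 pair, D2 over 87, by 1.0 ± 0.28 (adjusted p = 0.0338), but not in the F test. The call of the F test for Mdm2 was lost on leaving out any 1 of libraries 1, 2, 5, 6, 8, 9, 13, 15, 19, 21, 23 and 24, with adjusted p of at most 0.11.

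Among WT groups none of the 8 genes differed between strains by the F test of edgeR (8.66% of all genes did). Among CMD groups 3 did, Trp53 (adjusted p = 0.00206), Mdm2 (0.00415) and Plk2 (0.044), where 28.3% of all genes were called. In each case D2 CMD was the highest. Trp53 was higher in D2 CMD than in B6 CMD by 0.79 on the log2 scale, than in 67 CMD by 0.82 and than in 87 CMD by 1.09. Mdm2 was higher by 0.70, 0.49 and 0.47 in the same pairs. Plk2 was higher than in B6 CMD by 0.62 and than in 87 CMD by 0.53. Of all genes, 11% were higher in D2 CMD than in B6 CMD, 5.23% than in 67 CMD and 17.3% than in 87 CMD. The call of Plk2 was lost in 21 of 24 fits that left out 1 library, and that of Mdm2 without library 24 (adjusted p = 0.0666).

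Marker sums of other cell types differed among the 3 D2 CMD libraries. In libraries 23 and 24 the 6 satellite cell and myoblast markers summed to 251 and 149 CPM, against 57.6 CPM in library 22 and 37.5 to 62.9 CPM in D2 WT. The 3 Schwann cell markers of libraries 23 and 24 summed to 188 and 127 CPM, against 32.7 CPM in library 22 and 29.0 to 38.4 CPM in D2 WT. Libraries 23 and 24 were also the 2 highest in Cdkn1a, Trp53, Mdm2 and Plk2 in D2. Other lists were ordered differently. The macrophage sum was 407 CPM in library 22, 121 in library 23 and 356 in library 24, against 73.5 to 125 CPM in D2 WT. The fibro-adipogenic sum was 1159, 1082 and 1659 CPM in libraries 22, 23 and 24, against 456 to 786 CPM in D2 WT, and the adipocyte sum was 582, 655 and 16.4 CPM, against 14.9 to 179 CPM. The part of these cell types in the D2 values was not tested.

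Plk2, a polo-like kinase and p53 target, rose in B6, 87 and D2 CMD muscle. In B6 it was at 11.3, 12.3 and 11.99 CPM in CMD and 7.09, 6.79 and 6.46 CPM in WT. Neither group spread by much, and the log2 fold change was 0.81 ± 0.19 (adjusted p = 0.00763). Plk2 was the 1 gene of the 8 called in B6. In 87 it was at 13.6, 10.5 and 13.6 CPM in CMD and 6.55, 7.37 and 9.89 CPM in WT (0.67 ± 0.19, adjusted p = 0.0164). In D2 the levels were 15.3, 22.5 and 16.8 CPM in CMD and 7.54, 7.65 and 8.72 CPM in WT (1.19 ± 0.19, adjusted p = 0.000447). In 67 they were 13.9, 15.6 and 9.50 CPM in CMD and 9.66, 11.6 and 9.49 CPM in WT, with overlap (0.34, adjusted p = 0.2). The call in 87 was lost without library 13, 14, 16 or 18, and the F test of the interaction was not passed.

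Ccng1, which encodes cyclin G1 and is a p53 target, was the only one of the 8 called lower. In 67 it was at 635, 563 and 536 CPM in CMD and 1011, 967 and 1153 CPM in WT (-0.85 ± 0.18, adjusted p = 0.00308). In D2 it was at 695, 431 and 468 CPM in CMD and 800, 850.2 and 774 CPM in WT (-0.61 ± 0.18, adjusted p = 0.0246). In B6 the levels were 769, 552 and 720.4 CPM in CMD and 906, 831 and 905 CPM in WT (-0.37, adjusted p = 0.157), and in 87 they were 811, 542 and 588 CPM in CMD and 821, 865 and 1023 CPM in WT (-0.48, adjusted p = 0.0649). All 3 CMD libraries lay below all 3 WT libraries in each of the 4 strains, a pattern that 3.66% of all genes showed. The D2 call was lost without library 20, 23 or 24, and a call in 87 was gained without library 5, 17, 22 or 23. Averaged over the strains Ccng1 fell by 0.58 on the log2 scale (adjusted p = 3.9e-05).

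Bax, which encodes a pore-forming protein of apoptosis and is a p53 target, rose in 87 and D2 CMD muscle. In 87 it was at 16.2, 14.4 and 18.3 CPM in CMD and 10.6, 10.9 and 9.48 CPM in WT (0.66 ± 0.18, adjusted p = 0.0133). In D2 it was at 11.8, 15.8 and 14.2 CPM in CMD and 7.61, 11.1 and 8.24 CPM in WT (0.63 ± 0.18, adjusted p = 0.0182). In 67 the groups did not overlap either, at 12.8 to 14.9 CPM in CMD and 8.51 to 11.5 CPM in WT, but the gene was not called (0.43, adjusted p = 0.0924). In B6 they overlapped (0.31, adjusted p = 0.23). The 87 call was lost without library 15 or 18 and the D2 call without library 19, 21, 23 or 24. Of the Bax reads 96.95% were unique, and all reads of the other 7 genes were.

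**Figure D4:**
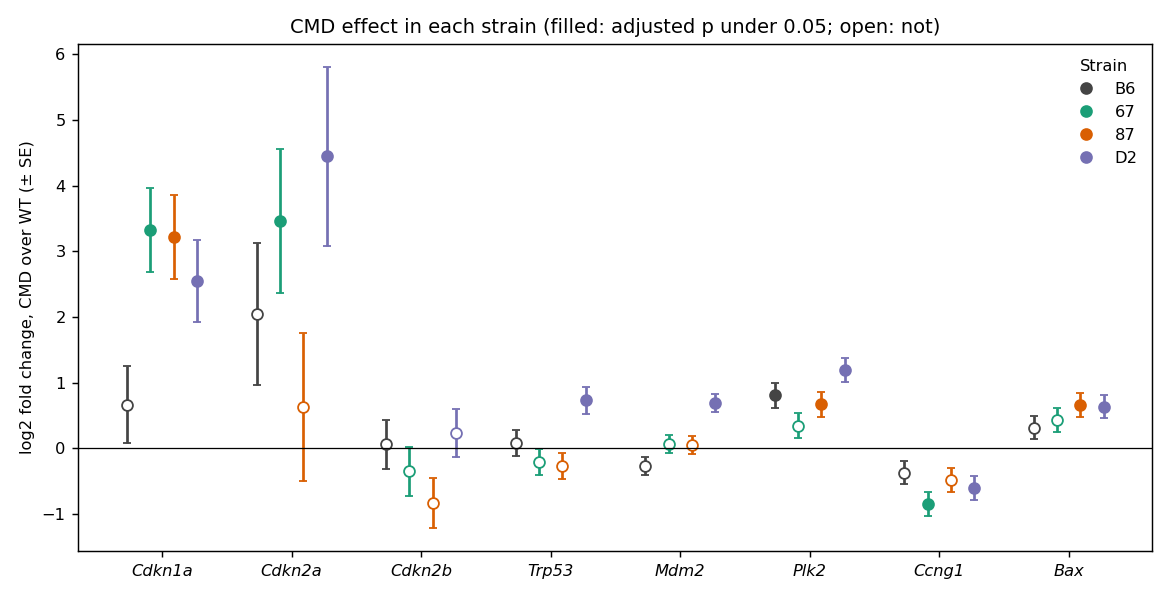
Log2 fold change of CMD over WT in each strain for the 8 genes, with standard errors from the fit of 3 against 3 libraries. Filled points were called at an adjusted p below 0.05. Ccng1 is below 0 in all 4 strains, Plk2 and Bax above 0 in all 4, and Trp53 and Mdm2 are filled in D2 and open in the other 3 strains.

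The promoters of 3 of the 8 genes held a match to the p53 element, and they are printed here because these genes, all known p53 targets, did not move one way. The search used RefSeq promoter windows of build GRCm38.p6, from 250 bases before to 50 after each gene's start. All 8 genes had a window and 10 windows were searched. The p53 element was read on both strands as 2 copies of its 10-base unit with at most 2 mismatches in all, the fixed C and G of each copy kept, and at most 1 base between the copies. Of 32851 windows of all genes, 224 (0.682%) held a match. Capitals mark the match in each line, and the flanks are in lower case. The Cdkn1a stretch is chr17:29090888-29090978 on the plus strand, the Ccng1 stretch chr11:40755422-40755521 on the minus strand and the Bax stretch chr7:45467039-45467139 on the minus strand.
Cdkn1a: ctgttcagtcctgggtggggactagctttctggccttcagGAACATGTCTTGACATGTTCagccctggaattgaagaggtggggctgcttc
Ccng1: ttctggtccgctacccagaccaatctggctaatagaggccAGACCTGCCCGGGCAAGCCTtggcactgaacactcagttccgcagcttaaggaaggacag
Bax: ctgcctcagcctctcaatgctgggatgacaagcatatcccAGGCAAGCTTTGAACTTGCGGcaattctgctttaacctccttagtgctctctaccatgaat
The match began 51 bases before the start in Cdkn1a (the upstream of its 2 starts), 195 before it in Ccng1 and 201 before it in Bax, with 1, 1 and 2 mismatches. Cdkn1a was called higher in 3 strains, Bax in 2, and Ccng1 lower in 2. No match says only that these letters are not in a window. The files themselves were made on GRCm39 and hold no coordinates, so these positions are those of the RefSeq table.

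Of 30 other p53 targets tested, 5 were raised and 0 lowered in B6 CMD, and 9 and 2 in 67 CMD. In 87 CMD 11 were raised and 2 lowered, and in D2 CMD 9 and 2. Among all genes 8.07% were raised in B6, 11.4% in 67, 11.5% in 87 and 11.2% in D2, and 9.03% to 10.4% lowered. Averaged over the strains 15 were raised and 3 lowered, against 25.4% and 23.4% of all genes. Their median log2 fold change was 0.44 in B6, 0.25 in 67, 0.59 in 87 and 0.41 in D2. The list is no independent evidence of direction, since it was drawn up with earlier results known. Raised in all 4 strains were Eda2r, a death-domain receptor for ectodysplasin A2, Bbc3, which encodes the BH3-only protein PUMA, and Pmaip1, which encodes NOXA, where 1.43% of all genes were so. For Eda2r the log2 fold change was 0.95 in B6 CMD, 2.56 in 67 CMD, 2.07 in 87 CMD and 2.91 in D2 CMD. Its level was 39.9 to 53.1 CPM in B6 CMD and 15.7 to 31.3 CPM in B6 WT, and 69.7 to 103 CPM in D2 CMD and 8.85 to 15.4 CPM in D2 WT. For Bbc3 the log2 fold changes were 0.95, 1.82, 1.14 and 1.95 in B6, 67, 87 and D2. Gadd45a, a growth-arrest gene, rose in 67 (1.75), 87 (2.57) and D2 (2.93) and had 1.28 in B6 (adjusted p = 0.0744). Tigar, which lowers glycolytic flux, and Rrm2b, a ribonucleotide reductase subunit, were the 2 lowered in 67, 87 and D2, with Tigar at -1.26, -1.002 and -0.98.

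**Figure D5:**
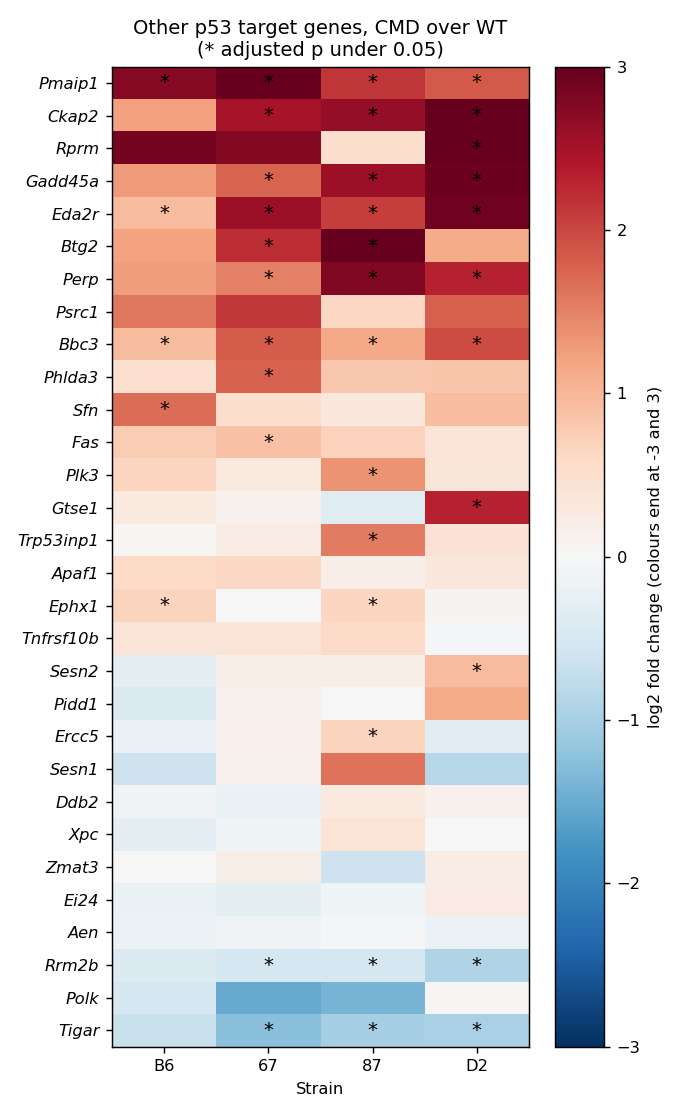
Log2 fold change of CMD over WT in each strain for 30 other p53 targets, sorted by their mean over strains, on a colour scale that ends at -3 and 3. Stars mark adjusted p below 0.05. Pmaip1, Eda2r and Bbc3 carry a star in all 4 strains, and Rrm2b and Tigar at the bottom carry one in 67, 87 and D2.

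Of 12 p53 regulators tested, 0 were raised and 3 lowered in B6 CMD. The counts were 1 and 0 in 67, 3 and 0 in 87 and 3 and 0 in D2, with medians between -0.11 and 0.12. Per strain 8.07% to 11.5% of all genes were raised and 9.03% to 10.4% lowered. Trp63, the p53 family member p63, rose in 67 (1.498), 87 (1.28) and D2 (1.62) and had 0.68 in B6 (adjusted p = 0.0884). Mdm4, the p53-binding partner of Mdm2, rose in 87 (0.67) and D2 (0.81). Trp73, another family member, was called in D2 alone.

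Other cell-cycle inhibitors fell where they changed within a strain. Cdkn1b, which encodes p27, fell in B6 (-0.63), 67 (-0.90) and D2 (-0.65), and Cdkn2c, which encodes p18Ink4c, fell in 87 (-1.42). Neither of the other 2 of the 4 was called in any strain. Among 12 genes of the CDK, RB and E2F axis, Cdk4, a kinase that p16Ink4a blocks, rose in all 4 strains by 0.30 to 0.44, and Cdk6 rose in B6 (1.27) and 67 (1.73). Of that list 2 were raised and 2 lowered in B6, 3 and 1 in 67, 2 and 0 in 87 and 4 and 2 in D2. The shares of all genes were 8.07% to 11.5% raised and 9.03% to 10.4% lowered per strain. Of 9 proliferation genes tested, 2 were raised in each strain, among them the replication helicase gene Mcm6 in all 4 (1.35 to 2.47), and Mcm2, which encodes another subunit of that helicase, was lowered in 87 (-1.14).

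Among 10 further genes of the BCL2 family, 1 was raised in B6, 3 in 67, 5 in 87 and 3 in D2, and 1 was lowered, Bak1 in 87. Bak1 was at -0.49 in 87 and was among those raised in D2 (0.47). For this list and the next, 8.07% to 11.5% of all genes were raised and 9.03% to 10.4% lowered per strain. Bcl2a1b, which had the smallest adjusted p of the list, rose in B6 (2.33), 67 (3.17) and D2 (4.50). Bid, a BH3-only activator of Bax, rose in 67 (1.39), 87 (1.32) and D2 (2.50), and Bcl2 rose in 87 (1.65). Of 13 senescence-associated genes tested, mostly for secreted factors, 5 were raised in B6, 5 in 67, 3 in 87 and 5 in D2. The metalloproteinase inhibitor Timp1 rose by 4.94 in B6, 5.75 in 67, 3.09 in 87 and 4.38 in D2, and the cytokine Il1b by 3.10, 3.19, 2.97 and 2.74. The lamin gene Lmnb1, whose loss marks senescent cells, fell in B6 (-0.67), 67 (-0.75) and 87 (-0.51) and was at -0.06 in D2 (adjusted p = 0.781). These genes are also expressed by inflammatory cells and fibroblasts.

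Markers of several cell types moved with genotype, where 8.07% to 11.5% of all genes were raised and 9.03% to 10.4% lowered per strain. The 6 muscle fibre markers were abundant in every library, as the tissue label has it. They summed to 85000 to 104000 CPM in B6 CMD and 153000 to 178000 CPM in B6 WT, with 3 of the 6 lowered there, 3 in 67 CMD, 2 in 87 CMD and 0 in D2 CMD. Myh1, a fast myosin heavy chain gene, was raised in 67 (4.29 on the log2 scale) and 87 (4.19), against the direction of the others called. Of 8 macrophage markers 0 were raised in B6, 4 in 67, 1 in 87 and 5 in D2, and their sum was 121 to 407 CPM in D2 CMD and 73.5 to 125 CPM in D2 WT. Of 7 fibro-adipogenic markers 0 were raised in B6, 2 in 67, 0 in 87 (where 1 fell) and 1 in D2. Their sum was 143 CPM in library 16, against 655 to 861 CPM in 87 WT, and 924 to 1340 CPM in 67 CMD, against 548 to 838 CPM in 67 WT. Of the 6 satellite cell and myoblast markers, Mymk, Mymx and Myog, genes of myoblast fusion and differentiation, rose in each strain. Pax7, which marks satellite cells, fell in 87 (-1.64) and was not called in the other strains, at -0.88 in B6, -0.70 in 67 and -0.79 in D2. T cell markers were near the floor, with Trac at 0 reads in every group. In whole muscle, fewer cells of a type and less RNA per cell cannot be told apart, and the part of these cells in the values of the 8 genes was not tested.

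The genes most alike to the 8 across libraries were read as a description, by Pearson r of log2 CPM over all 24 libraries among genes whose mean log2 CPM was 1 or more. Libraries share strain, genotype and depth, so these values carry no test. Cdkn1a was closest to Slc12a4 (r = 0.932), a potassium-chloride cotransporter, Dok7 (0.918), an adaptor of the neuromuscular junction, and Ahnak2 (0.916). Cdkn2a was closest to the cathepsin Ctsk (0.919). Cdkn2b was closest to Fchsd2 (0.892) and to the basement membrane gene Nid2 (0.873). Trp53 was closest to Arrdc1 (0.869) and Mdm2 to Zdhhc24 (0.853). Plk2 was closest to Ywhaz (0.864), which encodes a 14-3-3 protein, and Bax to Mettl21a (0.878). Ccng1 was closest to Scrn3 (0.951) and to Ppp3cb (0.947), a calcineurin subunit. Among the 8 themselves the strongest relation was the inverse one of Cdkn1a and Ccng1 (r = -0.888), and Trp53 had 0.04 with Cdkn1a and 0.58 with Mdm2.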

How the data were processed

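RNA was extracted with TRIzol and stranded mRNA libraries were sequenced as paired reads of 58 bases on a NextSeq 2000, per the labels' protocols. The build is GRCm39 (mm39), per the submitters' processing notes, and the sources used here name no aligner or counter. The authors deposited read counts per Ensembl gene (total and unique exon reads) and TPM per library, which was used only to set levels of genes side by side. Total exon reads were joined on gene ID. Genes were filtered with filterByExpr (minimum count 10, minimum total 15) and fitted in edgeR 4.0.16 (R 4.3.3) with TMM, glmQLFit and glmQLFTest on 8 group means, with Benjamini-Hochberg adjustment over 14789 genes. A standard error is the log2 fold change divided by the square root of F. The labels do not say whether each library is a separate mouse, so p-values measure the spread between these samples. Alternatives were sex terms, no filter, RLE size factors, unique reads, DESeq2 1.42.0, only the 2 groups compared, libraries left out and, chosen after seeing the data, females only. Sex from Y-linked reads means over 5 CPM in 4 genes for a male. The method was checked on simulated counts. The 8 genes and all lists were chosen with earlier results of these data known. From each list the 3 genes of smallest adjusted p of the mean CMD effect are named, not all here. Pmaip1, Tigar, Rrm2b, Bak1 and the library values of Eda2r, Mt1, Mt2, Trim63, Fkbp5 and Fbxo32 were named after their values were seen. Intervals on reads are exact (Clopper-Pearson, 95%) and cover counting error only.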

Additional observations from a re-analysis of the deposited data

Results flagged for a closer look

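The CMD effect on Mdm2 differed among the 4 strains by the F test of the interaction (adjusted p = 0.0243, where 4.67% of all genes were called), and the call was lost in 12 of 24 fits that left out 1 library. For Mdm2 the effect in D2 exceeded that in B6 by 0.956 and that in 87 by 0.635 on the log2 scale. For Trp53 the F test was not passed (adjusted p = 0.0912), and 1 of 6 pairs was, D2 over 87 by 1.0, where 3.02% of all genes were raised. Mdm2 was at 82.4 ± 19.2 CPM in D2 CMD and 51.2 ± 4.42 CPM in D2 WT, and Trp53 at 25.6 ± 5.88 CPM in D2 CMD and 15.5 ± 1.98 CPM in D2 WT (mean ± SD, n = 3 each). Library 24 was the highest of all in both genes, and by its Y-linked reads it is 1 of the 4 D2 libraries whose sex label was not matched.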

How the results depend on the processing

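No paired analysis was possible because the libraries carry the numbers 1 to 24 and no number occurs in 2 groups. With the sex term as labelled 1555 genes and 2 of the 8 differed in the CMD effect among strains, and 1339 genes and 1 of the 8 in WT. With the sex term from Y-linked reads 3683 genes and 5 of the 8 were called in 87, and of the 8 genes 1 among WT groups and 6 among CMD groups. Over all alternatives, single libraries left out aside, 2396 to 3933 genes were called in B6. For WT levels they called 1163 to 2184 genes and for CMD levels 3163 to 5521. Without libraries 16 and 23 the WT levels of 2014 genes, 1 of the 8 among them, differed among strains. In a fit on the 2 groups compared, 355 genes and 0 of the 8 were called in 87. DESeq2 called 1732 genes and 2 of the 8 for the difference among strains and 2184 genes for WT levels. Among the females by Y-linked reads, 4 of the 8 were called in B6, 5430 genes and 5 of the 8 in 87, 3548 genes and 3 of the 8 for the difference among strains, 1 of the 8 in WT and 5 in CMD. The cause of these shifts was not tested, and the fits on females and on 2 groups hold fewer libraries. Leaving out 1 library at a time gave 1139 to 3798 called genes in B6, 1921 to 4245 in 67, 1832 to 3741 in 87, 1511 to 4268 in D2, 356 to 1168 for the difference among strains, 562 to 1963 for WT and 2388 to 5276 for CMD levels. Of the 8 genes these fits called 1 to 2 in B6, 1 to 5 in 87, 4 to 7 in D2, 0 to 1 for the difference among strains, 0 to 1 in WT and 1 to 3 in CMD. None of the values that turned sign was called in any of these fits. Cdkn2b in B6 was at -0.17 with either sex term, -0.23 among females and -0.14 to 0.28 as single libraries were left out (below 0 without library 3 or 6), and in D2 at -0.14 with sex from Y-linked reads and 0.61 with sex as labelled. Trp53 in B6 was at -0.061 to 0.23 (below 0 without library 3 or 5) and 0.44 among females, where its average over strains was -0.0016, and Mdm2 in 87 at -0.015 to 0.14 (below 0 without library 16). Cdkn2a had 0 to 24 reads per WT library, so its counting error is wide.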
